A study of Mus musculus with 16 samples.

Results

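The comparison described here is that of day 10 with day 8 in vitro in 4 lines of mouse embryonic fibroblasts, connective tissue cells grown from embryos, once proliferation had slowed. It takes every library harvested on those 2 days, 4 at day 10 and 4 at day 8, of 16 in the series, and sets each line at day 10 against the same line at day 8. Of these lines, 2 were mutant (Zac+/-) and 2 were wildtype (Zac+/+), so each day held 2 mutant and 2 wildtype libraries. All lines came from C57BL/6 embryos taken at embryonic day 13.5 and were grown with fetal bovine serum. Zac1, now called Plagl1, is an imprinted gene for a zinc finger transcription factor and is expressed from the paternal copy. The titles of the mutant libraries hold KOpat, read here as a knockout of the paternal copy. The labels call days 8, 10 and 12 quiescent and day 2 proliferative. They give the letter I to both replicate 1 lines and L to both replicate 2 lines, and what the letters mark is not given in the sources used here. Nothing in the labels says how many embryos made a line, so p-values measure the spread between these 4 lines.

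Quiescence is a reversible stop of the cell cycle that fibroblasts enter when they become crowded or lack growth factors. Genes for DNA replication and mitosis are switched off in it through repressor complexes that replace the activators present in cycling cells. Quiescent fibroblasts remain active in metabolism and in the making and remodelling of extracellular matrix, the collagens, proteoglycans and elastic fibres between cells.

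RNA was measured as read counts over 23100 genes. The total count was 42255268 to 58971789 in the libraries of day 10 and 49296778 to 58661499 in those of day 8, where 3 reads amount to 0.0509 to 0.071 CPM. CPM are read counts scaled to a fixed library total, here with TMM, a correction for differences in composition between libraries, and replicate 1 is given before replicate 2 within each genotype. Tests were edgeR's quasi-likelihood test on the counts with the line as a block. A gene is said to have risen or fallen where its Benjamini-Hochberg adjusted p over the 14447 genes tested was under 0.05. Plagl1, the mutated gene, had 40.6 and 51.4 CPM in mutant and 211 and 164 CPM in wildtype lines at day 10, against 48.3 and 55.9 CPM in mutant and 165 and 128 CPM in wildtype lines at day 8. Both mutant lines lay below both wildtype lines on each day, in the direction of the labels. Over all 4 lines its log2 change from day 8 to day 10 was 0.09 ± 0.12 (SE, adjusted p = 0.753), and it became -0.01 without wildtype replicate 1 and also without wildtype replicate 2. Of 14 fibroblast markers, all were tested and 2 rose (Col3a1 and Dcn).

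At day 10, 106 genes were higher than at day 8 (0.734% of those tested) and 37 were lower (0.256%). The change was modest: the median log2 fold change was 0.74 among the genes that rose and -0.59 among those that fell, against 0.00 over all tested genes. All 4 lines moved in the same direction for each of the 143 genes, where 11.8% of tested genes were higher and 10.2% lower in all 4 lines. The test itself favours genes whose lines agree. Over all 14447 tested genes, those of low count included, the log2 changes correlated by 0.428 between the mutant lines and 0.149 between the wildtype lines. Between a mutant and a wildtype line the correlation was 0.015 to 0.302. The day 10 libraries all lay above the day 8 libraries for 41 of the 106 genes (3.07% of tested genes did so), and all lay below them for 31 of the 37 (3.43%). The counts depended on wildtype replicate 2, without which 5 genes rose (Penk, Sfrp2, Col8a2, Eln and Ism1) and 1 fell (Il1rl1), and on the block, without which 4 rose and 3 fell. Without mutant replicate 1, 53 rose and 6 fell, without mutant replicate 2, 46 rose and 6 fell, and without wildtype replicate 1, 357 rose and 420 fell.

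**Figure D1:**
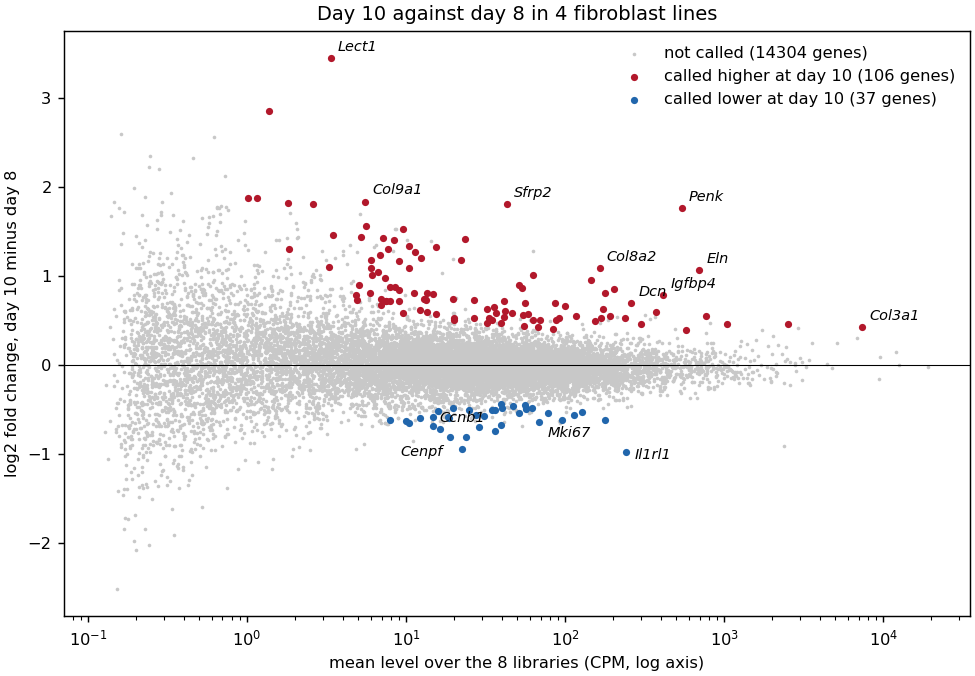
Each point is 1 of 14447 tested genes, with its mean level over the 8 libraries (CPM, log axis) on the horizontal axis and its log2 fold change, day 10 minus day 8, on the vertical axis. Red points are the 106 genes that rose and blue points the 37 that fell, and the blue points reach -0.98 while the red ones reach 3.45.

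The gene with the smallest p was Penk (NCBI gene 18619), which encodes proenkephalin, the precursor of the enkephalin opioid peptides. It had 542 and 1810 CPM in mutant and 179 and 852 CPM in wildtype lines at day 10, against 158 and 470 CPM in mutant and 66.9 and 229 CPM in wildtype lines at day 8. The lines differed widely in level and the 2 days overlapped, but each line was higher at day 10, by 3.39-fold in the fit (log2 1.76 ± 0.10, SE, adjusted p = 0.000114). Sfrp2 (NCBI gene 20319), a secreted modulator of Wnt signals, had 87.5 and 77.4 CPM in mutant and 39.9 and 64.4 CPM in wildtype lines at day 10, against 21.4 and 21.9 CPM in mutant and 17.8 and 14.1 CPM in wildtype lines at day 8. Here every day 10 library lay above every day 8 library, with a fitted 3.50-fold change (log2 1.81 ± 0.15, adjusted p = 0.00104). Over the time course both genes were lowest at day 2, when Penk was at 2.62 to 5.69 CPM and Sfrp2 at 0.892 to 1.92 CPM, and at day 12 Penk was at 319 to 2042 CPM and Sfrp2 at 62.5 to 162.5 CPM.

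Other genes among the 12 with the largest rise had lower counts. Cpxm2, a secreted member of the carboxypeptidase family, rose by a log2 of 1.44 ± 0.15 (adjusted p = 0.00356), and its lines changed by 1.24 to 1.57. Fxyd1, a regulator of the sodium pump, had 14.9 and 18.1 CPM in mutant and 14.0 and 12.7 CPM in wildtype lines at day 10, against 5.64 and 6.59 CPM in mutant and 7.28 and 4.39 CPM in wildtype lines at day 8, with no overlap between days (log2 1.33 ± 0.13, adjusted p = 0.0033). Ism1, which encodes the secreted protein isthmin, rose by 1.32 ± 0.12 (adjusted p = 0.0024). Scg2, a protein of secretory granules, rose by 1.43 ± 0.17 (adjusted p = 0.00644), and Steap4, a metal reductase, by 1.40 ± 0.22 (adjusted p = 0.0233). Their lines overlapped between days, Steap4 having 3.76 CPM in wildtype replicate 1 at day 10 against 6.15 CPM in mutant replicate 2 at day 8. The remaining genes of the 12 encode matrix, cartilage or macrophage products and are described with those groups.

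**Figure D2:**
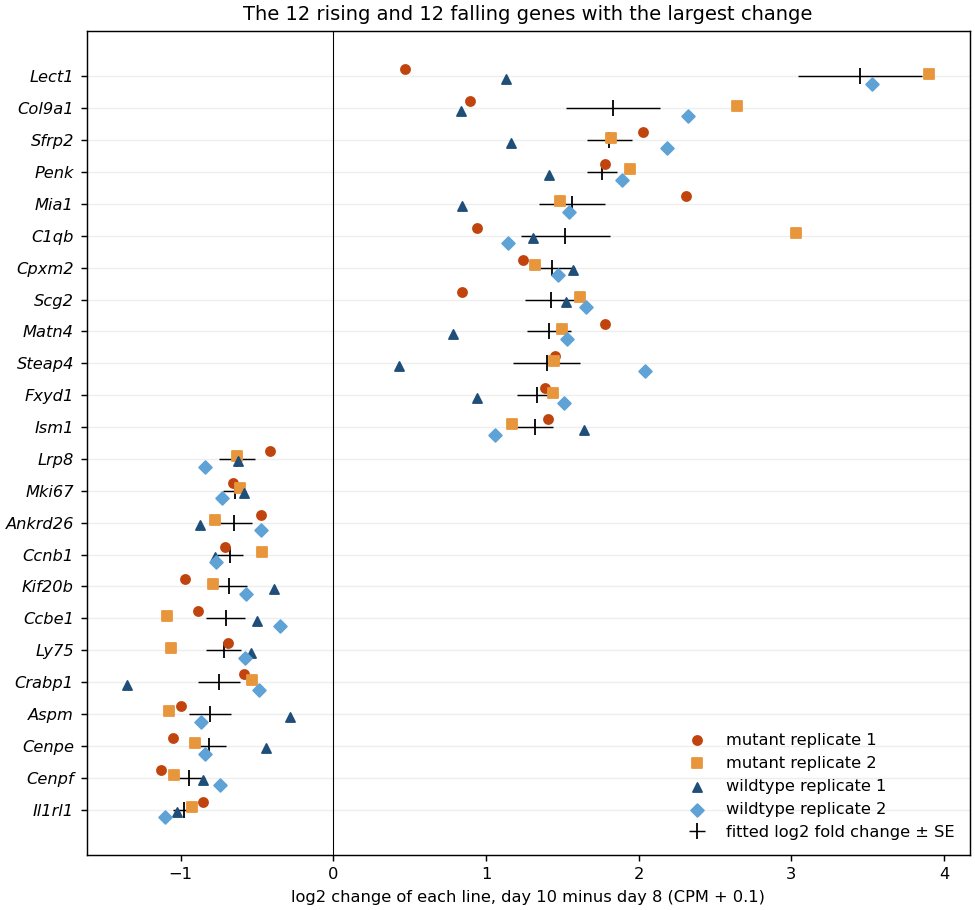
Points give the log2 change of each line, day 10 minus day 8 (CPM + 0.1), for the 12 rising and 12 falling genes named by size of change among those with a mean of at least 5 CPM on either day, and black bars give the fitted change ± SE. All lines lie on 1 side of 0 for every gene, and the spread between lines is widest for Lect1, Col9a1 and C1qb.

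The largest fall was that of Il1rl1 (NCBI gene 17082), which encodes ST2, the receptor of interleukin 33, and has long been known as a serum-induced gene of fibroblasts. It had 199.6 and 152 CPM in mutant and 108 and 191 CPM in wildtype lines at day 10, against 360 and 289 CPM in mutant and 221 and 409 CPM in wildtype lines at day 8. Every line at day 10 lay below every line at day 8, and the fitted level was 50.8% of that at day 8 (log2 -0.98 ± 0.08, adjusted p = 0.00104). Its lines were at 515.5 to 593.5 CPM at day 2 and 85.9 to 164 CPM at day 12. Of the other genes with the largest falls, Crabp1, a retinoic acid binding protein, fell by 0.75 ± 0.14 on the log2 scale (adjusted p = 0.0386), Ly75, an endocytic receptor, by 0.72 ± 0.11 (adjusted p = 0.0236) and Ccbe1, a matrix protein required for lymphatic vessel growth, by 0.70 ± 0.13 (adjusted p = 0.0376). Lrp8, a receptor for reelin and apolipoprotein E, fell by 0.63 ± 0.12 (adjusted p = 0.0393). Outside the genes named by rule, and chosen after their values were seen, Ptgs2 (cyclooxygenase 2) had 99.5 to 109 CPM at day 10, against 118 to 176 CPM at day 8, and Grem1, a BMP antagonist, had 84.7 to 166 CPM, against 177 to 238 CPM. Both fell, by 0.53 ± 0.10 (adjusted p = 0.0385) and 0.62 ± 0.11 (adjusted p = 0.0309).

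Mitotic genes were lower at day 10 than at day 8. Of 25 genes of the G2 and M phases of the cell cycle, 9 fell and none rose, all 25 fitted changes were below 0, and their median was -0.50 against 0.00 for all tested genes. Cenpf (NCBI gene 108000), a kinetochore protein, had 12.3 and 17.4 CPM in mutant and 12.7 and 19.4 CPM in wildtype lines at day 10, against 26.9 and 35.8 CPM in mutant and 22.98 and 32.4 CPM in wildtype lines at day 8 (log2 -0.94 ± 0.10, adjusted p = 0.00401). Mki67 (NCBI gene 17345), the Ki-67 antigen used to mark cycling cells, had 45.2 and 61.0 CPM in mutant and 50.5 and 55.5 CPM in wildtype lines at day 10, against 71.2 and 93.3 CPM in mutant and 75.8 and 92.2 CPM in wildtype lines at day 8 (log2 -0.65 ± 0.07, adjusted p = 0.00551). Ccnb1 (NCBI gene 268697), the mitotic cyclin B1, had 27.7 and 34.1 CPM in mutant and 28.9 and 30.2 CPM in wildtype lines at day 10, against 45.3 and 47.2 CPM in mutant and 49.5 and 51.5 CPM in wildtype lines at day 8 (log2 -0.68 ± 0.09, adjusted p = 0.0079). The days did not overlap for any of these 3 genes. Cenpe (NCBI gene 229841), a kinetochore motor, fell by 0.81 ± 0.11 (adjusted p = 0.0138). Top2a (topoisomerase II), Tpx2 and Kif11 (spindle assembly), Kif20a (cytokinesis) and Bub1 (the spindle checkpoint kinase) fell by 0.50 to 0.59. Aspm and Kif20b, a spindle pole protein and a mitotic kinesin that were not on the list, also fell, by 0.81 ± 0.14 (adjusted p = 0.0304) and 0.68 ± 0.12 (adjusted p = 0.0354), as did Ankrd26, a centriole protein, by 0.65 ± 0.12 (adjusted p = 0.0385).

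Summed over the list, G2/M transcripts stood at 626 and 731 CPM in mutant and 647 and 632 CPM in wildtype lines at day 10, against 865 and 956 CPM in mutant and 916 and 994 CPM in wildtype lines at day 8. Every line was lower at day 10, to between 0.636 and 0.765 of its day 8 level. The fall lay on a longer course, since the sums ran from 2731 to 3265 CPM at day 2 and from 414.5 to 488 CPM at day 12. By contrast, none of 25 S phase genes passed edgeR's test (5 had an unadjusted p under 0.05), with 21 of 25 fitted changes below 0 and a median of -0.11. That median was -0.04 without wildtype replicate 2, and the medians of single lines were 0.01 and -0.03 in mutant and -0.08 and -0.31 in wildtype lines. Their sums were 562 to 656 CPM at day 10, against 661 to 696 CPM at day 8. Whether the G2/M genes differed from the S phase genes in their change was not tested. The number of G2/M genes that fell was 4 without mutant replicate 1, 5 without mutant replicate 2, 16 without wildtype replicate 1, 0 without wildtype replicate 2 and 3 without the line block.

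Promoters of the 4 mitotic genes with the smallest p among those with a sequence are shown because G2/M genes are known to share a pair of promoter elements, the CCAAT box and the cell cycle genes homology region. Each run is the 250 bases before the first listed RefSeq start in GRCm38.p6, read 5′ to 3′ on the gene's strand. Capitals mark CCAAT and TTTGAA, searched on both strands (ATTGG and TTCAAA are the reverse complements), and no 2 matches overlap in these runs. The positions are chr1:189688087-189688336 (minus strand) for Cenpf, chr7:135716380-135716629 (minus) for Mki67, chr13:100786487-100786736 (minus) for Ccnb1 and chr3:135212313-135212562 (plus) for Cenpe.
Cenpf: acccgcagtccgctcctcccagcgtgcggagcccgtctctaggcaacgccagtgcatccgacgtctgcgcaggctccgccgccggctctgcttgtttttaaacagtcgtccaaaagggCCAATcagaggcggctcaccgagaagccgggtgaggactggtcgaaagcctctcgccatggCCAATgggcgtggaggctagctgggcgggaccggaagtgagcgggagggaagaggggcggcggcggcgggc
Mki67: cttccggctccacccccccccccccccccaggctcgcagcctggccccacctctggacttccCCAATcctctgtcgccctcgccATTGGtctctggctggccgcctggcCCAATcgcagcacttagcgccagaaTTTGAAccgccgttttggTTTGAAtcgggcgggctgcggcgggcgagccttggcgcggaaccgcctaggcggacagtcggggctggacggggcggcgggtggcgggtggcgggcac
Ccnb1: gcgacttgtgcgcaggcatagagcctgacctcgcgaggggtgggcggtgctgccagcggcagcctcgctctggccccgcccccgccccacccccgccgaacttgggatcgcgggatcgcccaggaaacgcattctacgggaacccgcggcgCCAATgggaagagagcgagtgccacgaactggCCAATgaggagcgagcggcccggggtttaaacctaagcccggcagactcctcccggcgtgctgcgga
Cenpe: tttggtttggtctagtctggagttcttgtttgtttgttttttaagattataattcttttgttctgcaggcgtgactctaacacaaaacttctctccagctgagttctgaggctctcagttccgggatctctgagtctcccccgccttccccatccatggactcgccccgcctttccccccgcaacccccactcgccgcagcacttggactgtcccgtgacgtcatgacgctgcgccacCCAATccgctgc
The CCAAT letters stand 132 and 71 bases before the start of Cenpf, 99 and 67 bases before that of Ccnb1 and 12 bases before that of Cenpe. Mki67 has them 188, 166 and 141 bases before its start, the middle one on the opposite strand, and TTTGAA 116 and 98 bases before it.

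Such windows were found for 11349 of the 14447 tested genes, and 36.5% of these held CCAAT and 10.6% TTTGAA. Over all 27025 genes with a window the shares were 34.5% and 16.3%. Of the genes that fell, 31 of 37 had a window, of which 20 (64.5%) held CCAAT and 7 (22.6%) TTTGAA. Of the genes that rose, 78 of 106 had a window, of which 22 (28.2%) held CCAAT and 13 (16.7%) TTTGAA. On the G2/M list 20 of 25 genes had a window, and 18 held CCAAT (90.0%) and 7 TTTGAA (35.0%), including genes that did not pass the test. These matches describe letters in a window and not bound sites.

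Extracellular matrix genes were among those that rose. Elastin (Eln, NCBI gene 13717), the core of elastic fibres, had 1579 and 656 CPM in mutant and 1158 and 466 CPM in wildtype lines at day 10, against 581 and 359 CPM in mutant and 490 and 288 CPM in wildtype lines at day 8. Each line was higher at day 10, though the days overlapped through wildtype replicate 2, which at day 10 lay below mutant replicate 1 and wildtype replicate 1 at day 8 (log2 1.06 ± 0.12, adjusted p = 0.0047). Among 28 matrix glycoproteins tested, 5 rose and none fell, with a median of 0.16. Besides Eln these were Mfap4 and Mfap2, both of elastic microfibrils (0.69 ± 0.09 with adjusted p = 0.00787, and 0.50 ± 0.09 with adjusted p = 0.0354), Matn4, a matrilin that links matrix fibres (1.41 ± 0.14, adjusted p = 0.00356), and Comp, a cartilage and tendon protein (1.00 ± 0.12, adjusted p = 0.00659). Without wildtype replicate 2, 1 of the 28 passed the test, without wildtype replicate 1 there were 8, and without the line block none.

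Among 20 proteoglycans 6 rose and none fell, with a median of 0.21. Decorin (Dcn, NCBI gene 13179), which binds collagen fibrils and growth factors, had 271 and 359 CPM in mutant and 324 and 321 CPM in wildtype lines at day 10, against 212 and 245 CPM in mutant and 171 and 167 CPM in wildtype lines at day 8. The days did not overlap (log2 0.69 ± 0.11, adjusted p = 0.0236). Fibromodulin (Fmod), another small proteoglycan of collagen fibrils, rose by 0.59 ± 0.07 (adjusted p = 0.00815), Podn by 0.55 ± 0.08 (adjusted p = 0.0172) and Prelp, which anchors matrix to basement membrane, by 0.49 ± 0.07 (adjusted p = 0.0172). Gpc3, a glypican of the cell surface, and Srpx made up the 6. Without wildtype replicate 2 or without the line block, none of the 20 passed the test, and without mutant replicate 2 there were 2.

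Of 11 fibrillar collagen genes tested, all had a fitted change above 0 (median 0.21, or 0.12 without mutant replicate 2) and 1 passed the test. This was Col3a1, the chain of collagen III, with 9438 and 8851 CPM in mutant and 7103 and 8430 CPM in wildtype lines at day 10, against 6898 and 6801 CPM in mutant and 5287 and 6271 CPM in wildtype lines at day 8. All day 10 libraries were above all day 8 libraries (log2 0.42 ± 0.07, adjusted p = 0.0292), whereas Col1a1 and Col1a2 had fitted changes of 0.08 and 0.14 that did not pass. Of 15 other collagen genes, Col8a2 rose and Col7a1 fell. Col8a2 (NCBI gene 329941), a chain of the network-forming collagen VIII, had 194 and 345 CPM in mutant and 169 and 185 CPM in wildtype lines at day 10, against 83.6 and 159 CPM in mutant and 73.7 and 107 CPM in wildtype lines at day 8, without overlap (log2 1.08 ± 0.09, adjusted p = 0.00104). Col7a1, the anchoring fibril collagen, fell by 0.51 ± 0.10 (adjusted p = 0.0418).

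Among 24 matrix proteases and inhibitors 3 rose and none fell. They were Mmp2 (gelatinase A, 0.45 ± 0.07, adjusted p = 0.0236), Adamts9 (a proteoglycan-cleaving protease, 0.63 ± 0.11, adjusted p = 0.0336) and Serpine2 (a serine protease inhibitor, 0.54 ± 0.08, adjusted p = 0.0142). Mmp2 was at 1088 to 1297 CPM at day 10, against 781 to 995 CPM at day 8. None of 16 genes for matrix crosslinking enzymes passed the test, and 3 had an unadjusted p under 0.05.

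**Figure D3:**
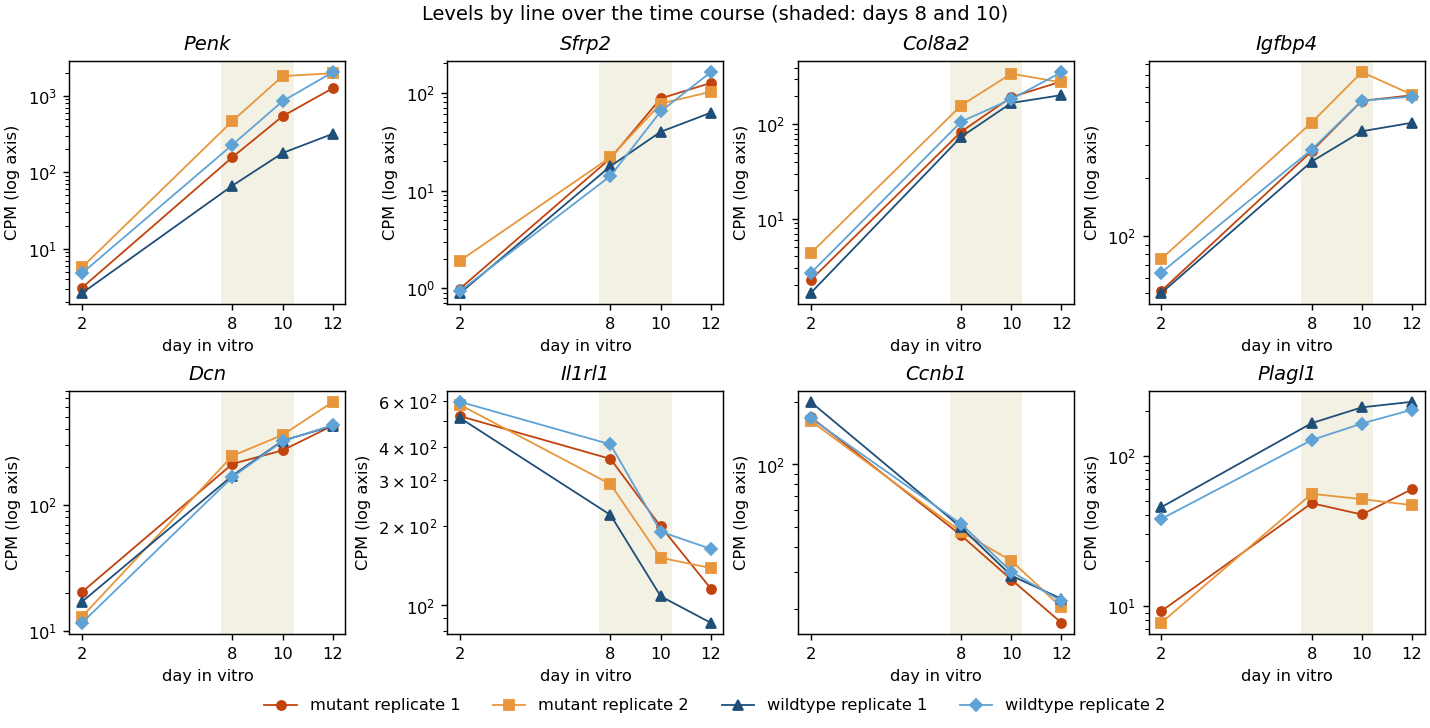
Levels of 8 genes (CPM, log axis) are drawn over days 2, 8, 10 and 12 for each line, with days 8 and 10 shaded. Penk, Sfrp2, Col8a2, Igfbp4 and Dcn are higher and Il1rl1 and Ccnb1 lower at day 10 than at day 8 in all 4 lines, while Plagl1 is higher in both wildtype lines and lower in both mutant lines.

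Genes of the insulin-like growth factor (IGF) axis that passed the test over all lines were binding proteins, which hold IGFs outside the cell. Of 20 genes tested 4 rose, all of them Igfbp genes, and none fell, with a median of 0.09 (0.01 without mutant replicate 1 and 0.06 without wildtype replicate 2). Igfbp4 (NCBI gene 16010) had 510 and 721 CPM in mutant and 353 and 510 CPM in wildtype lines at day 10, against 278 and 392 CPM in mutant and 245 and 283 CPM in wildtype lines at day 8. Each line was higher at day 10 (1.72-fold, log2 0.78 ± 0.08, adjusted p = 0.00401). Igfbp2 rose by 0.85 ± 0.14 (adjusted p = 0.0274), Igfbp3 by 0.63 ± 0.10 (adjusted p = 0.0236) and Igfbp5 by 0.46 ± 0.08 (adjusted p = 0.0304). The ligands Igf1 and Igf2 had fitted changes of 0.50 and 0.25 that did not pass, and the receptors Igf1r and Igf2r had -0.13 and -0.24. In edgeR's test within each genotype, Igf1 rose in wildtype lines by 0.95 ± 0.08 (adjusted p = 0.0001855). Its change in mutant lines was 0.04 ± 0.08 (adjusted p = 0.771). The number of IGF axis genes that rose over all lines was 0 without wildtype replicate 2 or without the line block, 1 without mutant replicate 1 and 2 without mutant replicate 2.

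Of 25 Wnt pathway genes 4 rose and none fell, with a median of 0.25. Beside Sfrp2 they were Rspo3, a secreted enhancer of Wnt signals (0.65 ± 0.09, adjusted p = 0.0113), Nkd1, an inhibitor and transcriptional target of the pathway (0.81 ± 0.11, adjusted p = 0.0138), and the receptor Fzd8 (0.58 ± 0.11, adjusted p = 0.0432). Rspo3 had 40.6 and 45.7 CPM in mutant and 46.7 and 42.2 CPM in wildtype lines at day 10, against 29.4 and 28.9 CPM in mutant and 28.7 and 24.9 CPM in wildtype lines at day 8, with no overlap. Axin2 and Lef1, both common targets of the pathway, had fitted changes of 0.26 and 0.56 that did not pass. The count was 1 without wildtype replicate 2, 7 without wildtype replicate 1 and 2 without the line block.

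Markers of 2 further cell types moved with the day. All 18 macrophage markers tested had a fitted change above 0, with a median of 1.27, and 5 rose (Csf1r, C1qb, C1qc, Lyz1 and Cd68). Csf1r (NCBI gene 12978), the receptor for macrophage colony-stimulating factor, had 30.7 and 6.95 CPM in mutant and 4.17 and 19.4 CPM in wildtype lines at day 10, against 14.9 and 1.33 CPM in mutant and 1.74 and 11.9 CPM in wildtype lines at day 8 (log2 1.27 ± 0.22, adjusted p = 0.0341). Levels differed more between lines than between days, and each line was higher at day 10. C1qb, a chain of the complement protein C1q, rose by 1.52 ± 0.29 (adjusted p = 0.0428), C1qc by 1.30 ± 0.25 (adjusted p = 0.0432) and the lysozyme gene Lyz1 by 1.23 ± 0.23 (adjusted p = 0.0418). Summed over the list, macrophage markers were at 514 and 99.3 CPM in mutant and 85.7 and 278.5 CPM in wildtype lines at day 10, against 278 and 18.5 CPM in mutant and 44.8 and 168 CPM in wildtype lines at day 8. No marker of the list was at 0 in all 8 libraries. In bulk RNA, more cells of a type and more RNA per cell cannot be told apart. Lyz1 has a near-identical copy, Lyz2, so the reads of the pair may be divided unevenly. The number that passed was 0 without wildtype replicate 2 or without the line block, 1 without mutant replicate 1 and 2 without wildtype replicate 1.

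All 12 cartilage markers tested likewise had a fitted change above 0 (median 1.14, or 0.43 without mutant replicate 2 and 1.80 without the line block), and 4 rose: Lect1 (chondromodulin, NCBI gene 16840), Ucma, Col9a1 (a chain of collagen IX) and Comp. Lect1 had 0.0847 and 18.5 CPM in mutant and 0.504 and 5.99 CPM in wildtype lines at day 10, against 0.0332 and 1.14 CPM in mutant and 0.176 and 0.429 CPM in wildtype lines at day 8. The rise of 3.45 ± 0.40 (adjusted p = 0.00578) thus came mostly from both replicate 2 lines, since mutant replicate 1 stayed near or under the level of 3 counts. Col9a1 had 1.14 and 25.01 CPM in mutant and 3.89 and 6.36 CPM in wildtype lines at day 10, against 0.564 and 3.92 CPM in mutant and 2.13 and 1.19 CPM in wildtype lines at day 8 (log2 1.83 ± 0.31, adjusted p = 0.0292). Ucma, at or under 0.0498 CPM in 4 libraries, rose by 2.86 ± 0.45 (adjusted p = 0.0236). The summed list stood at 161.5 and 784 CPM in mutant and 159 and 253 CPM in wildtype lines at day 10, against 115.5 and 269 CPM in mutant and 152 and 199 CPM in wildtype lines at day 8, so mutant replicate 2 was highest on both days. Mia1, a secreted protein of cartilage that was not on the list, rose by 1.56 ± 0.22 (adjusted p = 0.0138). The part of these cells in the matrix results, of which Comp is also a cartilage marker, was not tested. Without wildtype replicate 2 or without the line block none of the 12 passed, and without mutant replicate 2 there was 1.

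Complement genes overlapped the macrophage list in their C1q chains. Of 13 tested 5 rose and none fell, with a median of 0.51. Beside C1qb and C1qc these were C4b (0.97 ± 0.14, adjusted p = 0.0159) and 2 proteases of the classical pathway, C1ra (0.61 ± 0.09, adjusted p = 0.0177) and C1s (0.53 ± 0.09, adjusted p = 0.0354). C4b had 9.26 and 8.64 CPM in mutant and 10.1 and 10.8 CPM in wildtype lines at day 10, against 4.71 and 5.53 CPM in mutant and 4.97 and 4.52 CPM in wildtype lines at day 8. These levels did not overlap between days and, unlike the macrophage markers, lay close together in the 4 lines. C1ra, C1s and C4b have close copies in the mouse genome, so their counts are uncertain to that extent. The count was 0 without wildtype replicate 2, 1 without the line block, 2 without mutant replicate 1 and 3 without wildtype replicate 1. Markers of fat cells had 9 of 9 fitted changes above 0 (median 0.30), none of which passed and 4 of which had an unadjusted p under 0.05.

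**Figure D4:**
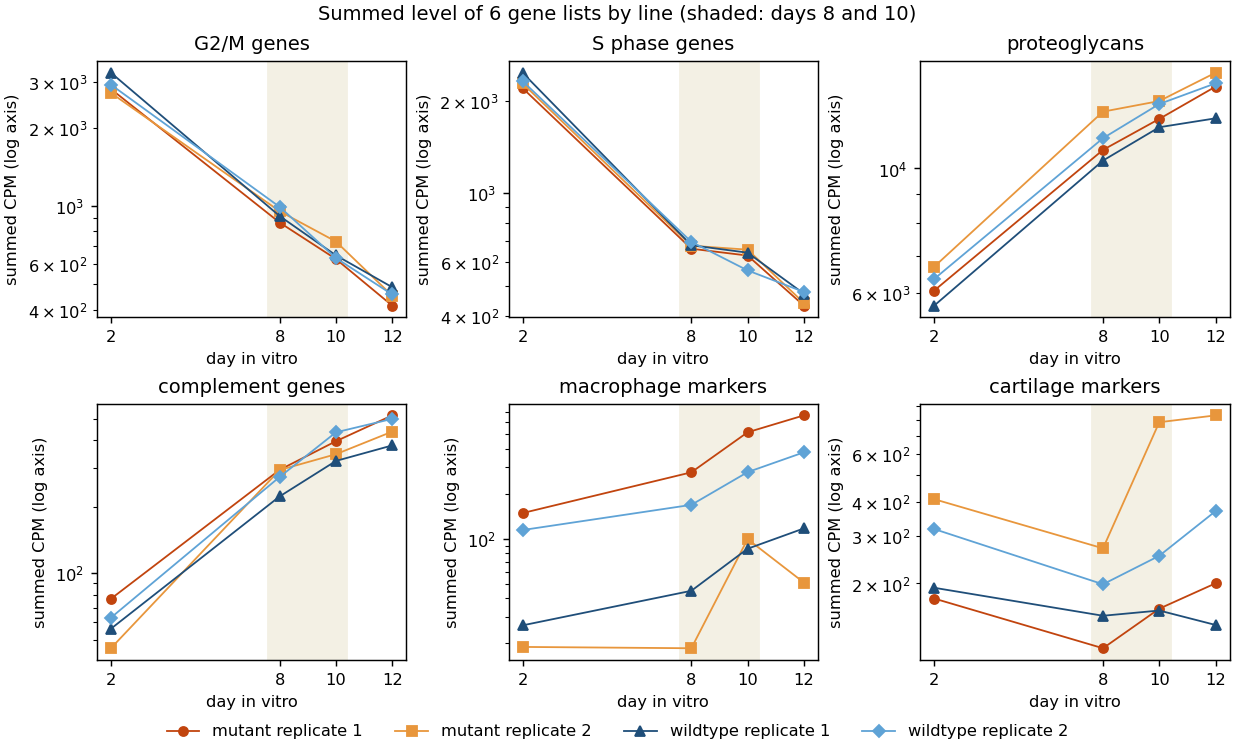
Summed levels of 6 gene lists (CPM, log axis) are drawn over days 2, 8, 10 and 12 for each line, with days 8 and 10 shaded. G2/M sums are lower and complement, proteoglycan, macrophage and cartilage sums higher at day 10 than at day 8 in every line, and mutant replicate 2 has the highest cartilage sum on each of the 4 days.

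Genes that mark growth arrest went in both directions. Of 16 tested, Gas1 and Gas6 rose and none fell, 5 had an unadjusted p under 0.05, and fitted changes ran from -0.57 to 0.53. Gas6, a ligand of the TAM receptors first found in growth-arrested fibroblasts, had 301 and 310.4 CPM in mutant and 247 and 264 CPM in wildtype lines at day 10, against 204.5 and 196 CPM in mutant and 186 and 189 CPM in wildtype lines at day 8, without overlap (log2 0.53 ± 0.08, adjusted p = 0.0159). Gas1, a membrane protein that restrains the cell cycle, rose by 0.45 ± 0.08 (adjusted p = 0.0377). The cyclin-dependent kinase inhibitors Cdkn1a and Cdkn1b had fitted changes of 0.00 and -0.11.

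Single members of several other lists passed. Dbp, an output gene of the circadian clock, was the 1 of 18 clock genes to do so, at 24.9 to 38.3 CPM at day 10, against 18.1 to 24.02 CPM at day 8 (log2 0.53 ± 0.09, adjusted p = 0.0271). Hist1h1c, a linker histone, rose by 0.51 ± 0.09 (adjusted p = 0.0339), and the chemokine Cxcl15 by 0.88 ± 0.17 (adjusted p = 0.045). Of 21 cholesterol synthesis genes 20 had a fitted change below 0, with a median of -0.14, which was -0.07 without wildtype replicate 2 and -0.21 without mutant replicate 1. The medians of single lines were 0.02 and -0.06 in mutant and -0.15 and -0.48 in wildtype lines, and Idi1 fell by 0.62 ± 0.12 (adjusted p = 0.0486). Elovl6, a fatty acid elongase, fell by 0.48 ± 0.09 (adjusted p = 0.0406), its libraries lying at 44.3 to 50.6 CPM at day 10, against 55.6 to 72.6 CPM at day 8.

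Among 17 genes of the imprinted gene network, to which Plagl1 belongs, Dcn rose and Slc38a4 fell, with a median of -0.01 (0.04 without mutant replicate 2). Slc38a4, an amino acid transporter, had 75.6 and 44.7 CPM in mutant and 66.6 and 70.1 CPM in wildtype lines at day 10, against 102 and 72.3 CPM in mutant and 94.2 and 102 CPM in wildtype lines at day 8 (log2 -0.54 ± 0.08, adjusted p = 0.0161). The days overlapped through mutant replicates 1 and 2, and each line was lower at day 10. None of 20 other imprinted genes passed, and 5 had an unadjusted p under 0.05. Of 50 lists with at least 4 tested members, 31 held no gene that passed, with medians from -0.19 to 0.30. They include those for interferon response, immediate early genes, glycolysis, hypoxia, the integrated stress response, p53 and FoxO targets, TGF-beta and YAP targets, and myofibroblasts.

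**Figure D5:**
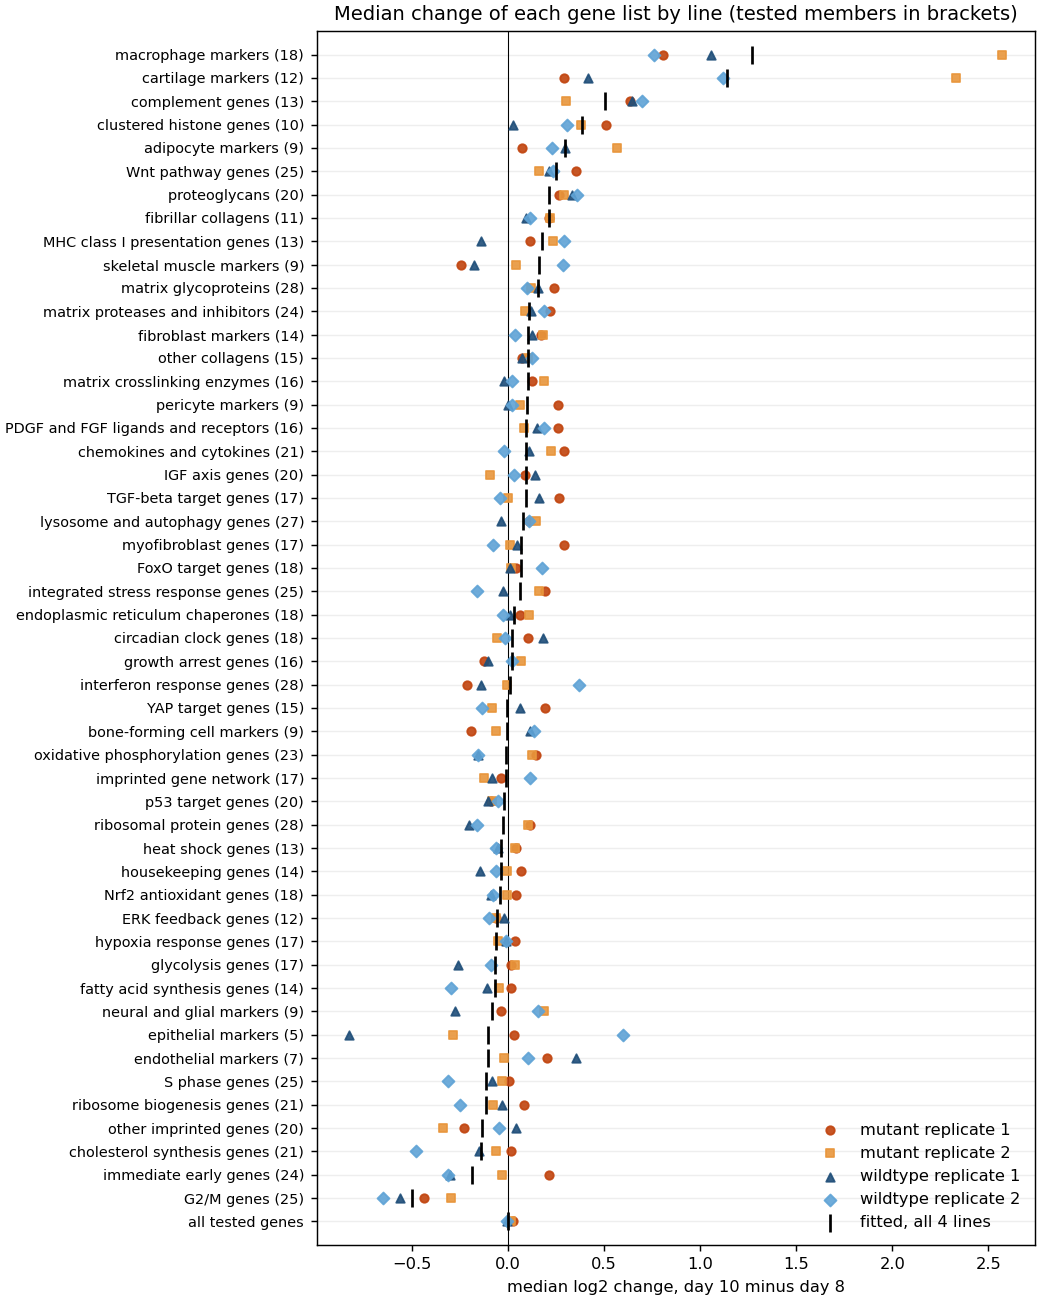
For each of 50 gene lists with at least 4 tested members, and for all tested genes, points give the median log2 change of each line, day 10 minus day 8, and black bars the median of the fitted changes. Macrophage markers (1.27) and cartilage markers (1.14) lie furthest above 0 and G2/M genes (-0.50) furthest below, and the medians of all tested genes are near 0 in each line.

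The change from day 8 to day 10 was also tested within each genotype. In mutant lines 998 genes rose and 1379 fell (16.5% of tested genes in either direction), and in wildtype lines 132 rose and 52 fell (1.27%). Line by line, the SD of the log2 change over genes was 0.324 and 0.354 in mutant and 0.251 and 0.237 in wildtype lines. The test of the difference itself, mutant minus wildtype, found 163 genes with a higher and 304 with a lower change in mutant lines (3.23%). It rests on 2 lines against 2 with 2 residual degrees of freedom. Without the line block edgeR called none (1892 genes had an unadjusted p under 0.05), and without wildtype replicate 1 none (1746 genes). Leaving out wildtype replicate 2 gave 2 genes with a higher and 0 with a lower change. Leaving out mutant replicate 1 gave 45 and 132 genes, and leaving out mutant replicate 2 gave 86 and 213. With 1 mutant line left the counts within the mutant genotype were 232 risen and 473 fallen (replicate 2 alone) or 192 and 506 (replicate 1 alone), and with 1 wildtype line left those within the wildtype genotype were 5 and 1 (replicate 2 alone) or 2 and 2 (replicate 1 alone), a lone line being taken to vary like the others.

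Of the genes with the smallest p in that test, Malat1, a nuclear long noncoding RNA, had 1601 and 1065 CPM in mutant and 2164 and 1747 CPM in wildtype lines at day 10, against 3816 and 3700 CPM in mutant and 2713 and 2148 CPM in wildtype lines at day 8. It fell in mutant lines (log2 -1.54 ± 0.11, adjusted p = 2.7e-05), its change in wildtype lines was -0.30 ± 0.11 (adjusted p = 0.293), and the difference was -1.24 ± 0.15 (adjusted p = 0.0101). Igf1, the growth factor, had 157 and 219 CPM in mutant and 249 and 236 CPM in wildtype lines at day 10, against 155 and 206.5 CPM in mutant and 127 and 125.5 CPM in wildtype lines at day 8. Its difference was -0.91 ± 0.11 (adjusted p = 0.0101), with wildtype lines higher at day 10 and mutant lines near their day 8 level. Romo1, a small mitochondrial membrane protein, had 90.4 and 81.3 CPM in mutant and 60.5 and 54.2 CPM in wildtype lines at day 10, against 47.4 and 48.2 CPM in mutant and 82.3 and 62.7 CPM in wildtype lines at day 8 (difference 1.15 ± 0.13, adjusted p = 0.0101). It rose in mutant lines (0.83 ± 0.09, adjusted p = 0.00065), and its change in wildtype lines, -0.32 ± 0.09, did not pass (adjusted p = 0.157). The chromatin remodeller Atrx (-1.03 ± 0.12, adjusted p = 0.0101), the angiotensin receptor Agtr2 (-0.87 ± 0.12), the kinase Nrk (-0.96 ± 0.14) and Phip (-0.97 ± 0.13), all with adjusted p = 0.0124 unless given, also had lower changes in mutant lines. In Igf1 both mutant lines were still below both wildtype lines at day 12 (231 and 260 against 281 and 277 CPM). The same held for Malat1. In Atrx the genotypes overlapped at day 12 (191.5 and 226 CPM in mutant, 218 and 188 CPM in wildtype lines). They also overlapped then in Phip, Nrk and Romo1, while Agtr2 was higher in both mutant lines. Whether the genotypes differed at day 12 was not tested.

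Of the 106 genes that rose over all lines, 2 differed between genotypes in their change, and of the 37 that fell, none did, against 3.23% of tested genes. The test over all lines counts a difference between genotypes as spread, so it favours genes without 1. The low count thus cannot show that these changes were alike in both genotypes. The 2 that differed were Igfbp2 (mutant minus wildtype 0.74 ± 0.12, adjusted p = 0.015) and Dcn (-0.50 ± 0.12, adjusted p = 0.0418). Igfbp2 had 320.2 and 347 CPM in mutant and 232 and 156 CPM in wildtype lines at day 10, against 128 and 157 CPM in mutant and 172 and 110.5 CPM in wildtype lines at day 8. Plagl1 also differed (-0.57 ± 0.12, adjusted p = 0.0295): its change was -0.20 ± 0.08 in mutant (adjusted p = 0.132) and 0.37 ± 0.08 in wildtype lines (adjusted p = 0.0512), neither of which passed alone. In 2 of the 50 lists the lines of either genotype had median changes beyond 0.1 on opposite sides of 0. Ribosomal protein genes had medians of 0.12 and 0.11 in mutant and -0.20 and -0.16 in wildtype lines, and oxidative phosphorylation genes had 0.15 and 0.13 in mutant and -0.15 and -0.16 in wildtype lines. In the test over all lines 0 members passed, but that test averages both genotypes, so opposite changes cancel in it. Both lists were picked for this pattern, and whether either differed between genotypes as a set was not tested. Ribosomal protein genes have many processed copies, so their counts are uncertain.

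Replicate 2 lines (letter L) and replicate 1 lines (letter I) were compared in the same way. edgeR's test of the difference in their change, L minus I, called 0 genes (0%), with 256 at an unadjusted p under 0.05, and DESeq2 called 1. Cartilage genes were among those with the smallest p: the difference was 1.64 ± 0.31 for Col9a1 (unadjusted p = 0.000694), 2.81 ± 0.54 for Col11a2 (unadjusted p = 0.000743) and 2.47 ± 0.58 for Lect1 (unadjusted p = 0.00258), each with an adjusted p of 1. So was Angptl7, which was not on the cartilage list (1.37 ± 0.30, unadjusted p = 0.00162). The other cartilage markers that rose over all lines, Ucma and Comp, had differences of 0.47 ± 1.64 and 0.37 ± 0.23 (unadjusted p = 0.781 and 0.144). Without mutant replicate 1 the test called 44 genes higher and 15 lower in their change in set L.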

How the data were processed

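RNA was sequenced from stranded libraries of DNase-treated RNA, per the labels' protocols. The submitters' processing notes name HTSeq 0.6.1p1, TopHat2 2.1.1, bcl2fastq 2.18 and Bowtie2 2.2.9, and the mouse build mm9. The authors deposited whole-number read counts per gene, not normalized. No source used here gives the annotation or the strand setting of the counting. Overlapping genes on opposite strands may therefore not be told apart in the counts, and only RefSeq promoters of another build (GRCm38.p6) carry coordinates.

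Counts of the 8 libraries were filtered with filterByExpr by day and fitted with edgeR 4.0.16 (R 4.3.3; TMM, robust quasi-likelihood, line and day, 3 residual degrees of freedom), with Benjamini-Hochberg adjustment and a threshold of 0.05. SE is the absolute log2 change over the square root of F. An exact sign-flip test of 4 lines cannot go below 0.125. The line was the block because each line was harvested on both days. The deviations of its 2 libraries from the mean of all 4 lines of their day correlated by 0.244 to 0.419. Those means take both genotypes together, so the correlations include any lasting difference between genotypes. No 2 libraries of a group were copies, since their chi-square over genes was 35.8 to 73.1 per degree of freedom. Intervals and floors from counts cover counting error only. Changes of single lines used CPM + 0.1.

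The members, the gene lists and the rules were chosen with earlier results of these data known. The rule for names took Plagl1, the 12 largest rises and the 12 largest falls among called genes with a mean of at least 5 CPM on either day and 1 direction in 4 lines (predicted genes left out), up to 4 called members of each list with the smallest p, the smallest p of a list with none, and the 8 smallest of each interaction. Some that did not pass are left out, 1 gene that met the rule is not reported here, and other genes named illustrate a list, with their values already seen. Alternatives were other normalizations and filters, DESeq2 1.42.0, limma-voom (limma 3.58.1), more libraries in the fit, no block, and leaving out each line. Scripts were tested on simulated data.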

Additional observations from a re-analysis of the deposited data

Results flagged for a closer look

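Single lines stood apart from the other 3 in their log2 change, day 10 minus day 8, for 8 of the 90 genes checked, where chance flags about 1 in 20 groups. Mutant replicate 2 had the largest change of C1qc (2.55) and Lyz1 (2.29), both macrophage markers, and its summed macrophage markers were 5.36 times those at day 8, against 1.65 to 1.91 times in the other lines. Its sum was 99.3 CPM at day 10 and 50.9 CPM at day 12. In the other lines the sum was higher at day 12 than at day 10 (667 CPM in mutant replicate 1, 117 and 378 CPM in wildtype lines). Wildtype replicate 1 stood apart for Igfbp4 (0.53), Prelp (0.56), Lpl (0.71) and Crabp1 (-1.35). Mutant replicate 1 had the smallest change of Scg2 (0.84), and wildtype replicate 2 the largest of Txnip (1.08). Lpl and Txnip did not pass the test over all lines.

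The change from day 8 to day 10 differed between mutant and wildtype lines (mutant minus wildtype, edgeR interaction test) for Malat1 (-1.24), Atrx (-1.03), Phip (-0.97), Nrk (-0.96), Igf1 (-0.91), Agtr2 (-0.87), Romo1 (1.15), Igfbp2 (0.74), Dcn (-0.50) and Plagl1 (-0.57). What else moved with genotype in these libraries was not tested.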

How the results depend on the processing

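Over all lines 106 genes rose and 37 fell. DESeq2 gave 286 and 179, the fit of 12 quiescent libraries 201 and 90, all 16 libraries 97 and 59, and no filter on low counts 155 and 78. With no replicate block 4 rose and 3 fell, and both counts were 0 for mutant minus wildtype (163 higher and 304 lower in the main test). Leaving out 1 line at a time gave 5 to 357 risen and 1 to 420 fallen genes. DESeq2 and limma-voom each kept all 143 calls, the fit of all 16 libraries kept 91 and the fit with no block 7. Leaving out mutant replicate 1 kept 55, mutant replicate 2 47, wildtype replicate 1 140 and wildtype replicate 2 6. The direction of the 143 was the same under every alternative that tested them. For mutant minus wildtype DESeq2 gave 262 and 614, and leaving out 1 line gave 0 to 86 and 0 to 213. In mutant lines alone, leaving out 1 line gave 192 to 820 risen and 473 to 1278 fallen genes. In wildtype lines alone it gave 2 to 180 and 1 to 80, and DESeq2 gave 83 fallen genes against 52. For set L minus set I, DESeq2 called 1 gene higher, and leaving out 1 line gave 2 to 44 higher and 0 to 15 lower. Leaving out a line changed the sign of Plagl1 (-0.0138 to 0.21) and Epor (-0.73 to 0.20), neither of which passed. Of the results for single genes, 62 lost their call with no block and 61 without wildtype replicate 2. Only 4 lines were available, and genes near 3 counts in some libraries, such as Ucma and, in mutant replicate 1, Lect1, have poorly determined folds. Counts by genotype under DESeq2, limma-voom and left-out lines, and both interactions with left-out lines, were chosen after seeing the data.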

Other observations

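Among the called genes on none of the lists, chosen here after their values were seen, several encode carriers of lipid. Apoe had 98.1 and 18.6 CPM in mutant and 53.3 and 35.8 CPM in wildtype lines at day 10, against 47.7 and 10.7 CPM in mutant and 43.0 and 21.7 CPM in wildtype lines at day 8 (log2 0.72 ± 0.11, adjusted p = 0.0224). Apod rose by 0.74 ± 0.11 (adjusted p = 0.0224), Clu (clusterin) by 0.73 ± 0.08 (adjusted p = 0.00541) and Pltp (phospholipid transfer protein) by 0.43 ± 0.08 (adjusted p = 0.0419). Clu had 34.6 and 29.3 CPM in mutant and 41.6 and 26.6 CPM in wildtype lines at day 10, against 19.5 and 18.2 CPM in mutant and 26.7 and 15.6 CPM in wildtype lines at day 8. Macrophages also express Apoe, and mutant replicate 1 was highest on both days in Apoe and in the summed macrophage markers, while the other lines stood in another order. The part of such cells in these values was not tested.

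Of the genes that fell, Anln, Racgap1, Arhgap11a, Diap3 and Shcbp1, none of them on the G2/M list, also act in cell division or are known to peak with it, and Nuf2 is a kinetochore protein. Their log2 changes ran from -0.48 for Racgap1 to -0.60 for Diap3 and Shcbp1, with adjusted p from 0.0236 to 0.0432 in edgeR's test, and each was lower at day 10 in all 4 lines. The angiotensin receptor Agtr1a rose by 1.04 ± 0.14 (adjusted p = 0.00978), with 6.63 to 12.5 CPM at day 10, against 3.06 to 6.36 CPM at day 8, so the days did not overlap.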
